A study of Mus musculus with 17 samples.

Results

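A set of 10 integrin subunit genes of the alveolar epithelium was followed in alveolar epithelial type 2 (AT2) cells, which make the surfactant of the lung. They were Itgav, Itgb6, Itgb8, Itgb5, Itgb1, Itga2, Itga3, Itga6, Itga7 and Itgb4, listed by symbol with earlier results of these data known. All 10 were found among the 43430 Ensembl gene IDs of both count tables. The study sequenced RNA from 17 libraries of AT2 cells sorted by flow cytometry from C57BL/6J mice aged 2 months. Of these, 8 were poly(A) libraries from naive mice, taken 24 h after vehicle (4 libraries) or after ISRIB (4 libraries), a small molecule that restores translation when the integrated stress response holds it back. The other 9 were total-RNA libraries, 4 of them from naive mice and 5 from mice given bleomycin 14 days before. Bleomycin is a drug whose lung injury is followed by fibrosis. The labels give vehicle as the treatment of all 9, their titles say saline, and no dose of ISRIB or bleomycin is stated in the sources used here. ISRIB was compared with vehicle, and bleomycin with naive, each within its own library kit.

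Integrins are receptors made of 1 alpha and 1 beta chain that hold a cell to the matrix around it and pass signals across the membrane. The chain encoded by Itgb1 pairs with many alpha chains, among them the laminin-binding chains of Itga3, Itga6 and Itga7 and the collagen-binding chain of Itga2. The chain of Itgb4 pairs with that of Itga6 in hemidesmosomes, the junctions that tie epithelium to its basement membrane. The chain of Itgav pairs with those of Itgb5, Itgb6 and Itgb8, and the pairs with Itgb6 and Itgb8 release active TGF-beta from its latent complex. In lung epithelium the pair of Itgav and Itgb6 is best known for this activation after injury.

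Total counts ran from 10493574 to 15727139 in the poly(A) libraries and from 3295257 to 6333166 in the total-RNA libraries, and the 10 genes together took 11873 to 16517 and 1987 to 7349 of them. Levels are given as CPM, which are counts scaled to a common effective library size, and differences as log2 fold changes with their standard error (SE). A gene was called at a Benjamini-Hochberg adjusted p under 0.05 in edgeR's quasi-likelihood test over all genes tested. That rule called 2304 of 11223 genes tested after bleomycin (20.5%) and 265 of 12054 after ISRIB (2.2%). The labels do not say that each library came from a separate mouse, so the p-values measure the spread between these libraries, which may be technical. Because RNA was pooled over sorted cells, fewer cells expressing a gene and less RNA of it per cell cannot be told apart. Markers of AT2 cells summed to 83641 to 91138 CPM in the naive libraries and 51940 to 91718 CPM after bleomycin, and the surfactant gene Sftpc stood between 19347 and 42987 CPM in each of the 9 libraries.

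After bleomycin, 6 of the 8 subunits that passed the filter on low counts were called higher and 0 lower, against a background of 11.2% of tested genes called higher and 9.31% called lower. The called genes were Itgav, Itgb6, Itga3, Itga6, Itga7 and Itgb4, with Itgb1 and Itgb5 not called and Itgb8 and Itga2 too low to be tested. For 5 of the 8 the naive and bleomycin libraries did not overlap and the bleomycin libraries were higher, against 10.4% of all genes tested that did so upward and 9.35% downward (19.7% in all). Itgb4 passed the filter mainly through the bleomycin libraries, of which 5 of 5 lay above the cutoff of 2.57 CPM against 2 of 4 naive libraries. The median log2 fold change of the 8 was 1.30, and that of all genes tested was 0.003. The members were chosen with earlier results of these data known. These counts and medians therefore describe the set, and the background shares are no test of it.

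**Figure D1:**
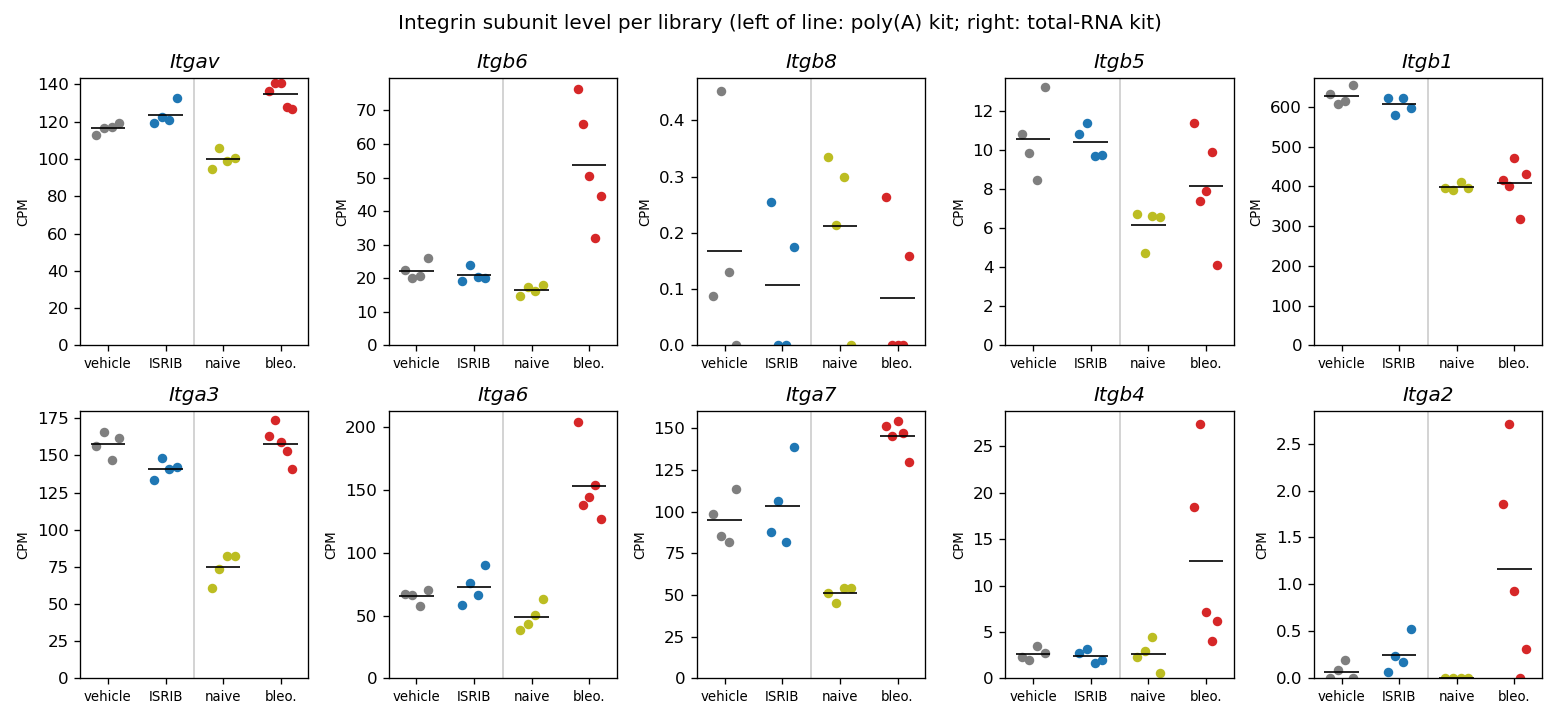
Each panel plots 1 integrin subunit, with CPM on the vertical axis from 0, 1 point per library and a line at the group mean; the grey line separates the poly(A) from the total-RNA kit. The bleomycin points of Itgav, Itgb6, Itga3, Itga6 and Itga7 all sit above their naive points, while those of Itgb1 and Itgb5 overlap with them.

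The TGF-beta-activating arm was led by Itgb6, the beta chain found mainly in epithelium. The gene lies on chromosome 2 from 60598292 to 60722643 on the minus strand (GRCm38; ENSMUSG00000026971). Itgb6 stood at 14.8, 17.5, 16.2 and 17.9 CPM in naive 1 to 4 and at 76.4, 65.9, 50.5, 31.9 and 44.5 CPM in bleomycin 1 to 5. Every bleomycin library was above every naive one, and the bleomycin libraries spread widely, with bleomycin 1 highest and bleomycin 4 lowest. The mean rose from 16.6 ± 1.42 to 53.8 ± 17.6 CPM (SD, n = 4 and 5), a log2 fold change of 1.70 (SE 0.22, 3.24-fold, edgeR adjusted p = 2.87e-05). With bleomycin 1 and bleomycin 2 both left out, the fold change was 1.36 on the log2 scale (edgeR adjusted p = 6.61e-05).

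Its partner Itgav encodes the alpha chain shared by all 3 beta chains of this arm (chromosome 2, 83724397 to 83806916, plus strand; ENSMUSG00000027087). Itgav stood at 94.6, 106, 98.8 and 100.4 CPM in naive 1 to 4 and at 136, 141, 141, 128 and 127 CPM in bleomycin 1 to 5. The groups did not overlap, and both were tight. The mean rose from 99.9 ± 4.71 to 135 ± 6.78 CPM, a log2 fold change of 0.43 (SE 0.10, 1.35-fold, edgeR adjusted p = 0.00654). Of the exons of Itgav, 634 bases lie opposite a non-coding model, Gm13684, and reads of the pair cannot be separated where counting ignores strand. Set against Itgav per kilobase of exon, Itgb6 came to 23.6% to 26.9% of the Itgav level in naive libraries and 37.6% to 84.6% after bleomycin, a share computed after the values were seen and given without a test.

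Itgb5 encodes the vitronectin-binding beta chain (chromosome 16, 33829665 to 33949338, plus strand; ENSMUSG00000022817). It stood at 6.71, 4.70, 6.61 and 6.56 CPM in naive 1 to 4 and at 11.4, 7.40, 7.90, 9.90 and 4.12 CPM in bleomycin 1 to 5. The groups overlapped, with bleomycin 5 below every naive library. The log2 fold change of Itgb5 was 0.40 (SE 0.33, 95% interval -0.31 to 1.10, edgeR adjusted p = 0.445). Itgb8, the other TGF-beta-activating beta chain (chromosome 12, 119158022 to 119238802, minus strand; ENSMUSG00000025321), had 3 counts in all 4 naive libraries together and 2 in all 5 bleomycin libraries. Both groups were at or under a floor of 3 counts, so a difference in Itgb8 was not detectable at this depth.

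Upstream sequences are shown for Itgb6 and Itgav, the partners of the TGF-beta-activating receptor that both rose, and for the laminin receptor gene Itga3. RefSeq promoter windows (GRCm38.p6, 250 bases before to 50 after a gene's start) were available here for 7 of the 10 genes. The part upstream of the annotated transcript is printed 5′ to 3′ on the gene's strand, with matches to CAGAC or its reverse complement GTCTG, the short SMAD element, in capitals. The regions are chr2:60722644-60722853 (minus strand) for Itgb6, chr2:83724147-83724396 (plus strand) for Itgav and chr11:95076802-95076964 (minus strand) for Itga3.
Itgb6: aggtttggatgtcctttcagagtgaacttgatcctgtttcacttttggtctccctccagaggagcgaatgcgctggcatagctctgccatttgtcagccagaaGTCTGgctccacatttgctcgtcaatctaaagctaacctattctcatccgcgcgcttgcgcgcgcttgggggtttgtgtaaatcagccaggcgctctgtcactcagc
Itgav: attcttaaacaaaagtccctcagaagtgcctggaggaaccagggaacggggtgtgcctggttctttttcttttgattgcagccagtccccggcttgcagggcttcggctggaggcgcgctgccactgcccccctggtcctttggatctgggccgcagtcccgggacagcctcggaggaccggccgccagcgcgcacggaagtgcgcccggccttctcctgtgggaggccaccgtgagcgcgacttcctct
Itga3: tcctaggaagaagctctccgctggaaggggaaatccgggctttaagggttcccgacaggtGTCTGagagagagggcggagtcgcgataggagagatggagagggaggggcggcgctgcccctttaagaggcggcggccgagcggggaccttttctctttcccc
GC made up 52.4% of the Itgb6 stretch, 64.4% of the Itgav stretch and 62.6% of the Itga3 stretch. Itgb6 and Itga3 each held 1 match, at positions -147 and -190 from the RefSeq start, and Itgav held 0. Of the genes not printed, Itgb1, which was not called after bleomycin, held 3 matches, Itga2 held 3, Itgb8 held 1 and Itgb5 held 0. The element occurs in 49.6% of all 32851 promoter windows of this length on either strand, so a match is common. The AP-1 element TGANTCA (7.81% of windows), the TEAD element GGAATG (14.7%) and the ATF4 composite element TGATGNAA (3.97%) had no match in the windows at these 3 starts. Itgb6 and Itga3 each had a second RefSeq window at another start, not printed. That of Itga3 held 1 AP-1 match, at position 12, and neither second window held a SMAD match. The window of Itgb1 held 1 TEAD match.

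Among the laminin receptors, all 3 alpha chains rose after bleomycin while their shared beta chain was not called. Itga3 encodes the alpha chain of the main laminin receptor of epithelia (chromosome 11, 95044474 to 95076801, minus strand; ENSMUSG00000001507). It stood at 61.0, 73.5, 82.6 and 82.3 CPM in naive 1 to 4 and at 163, 174, 159, 153 and 141 CPM in bleomycin 1 to 5. The highest naive library lay well below the lowest bleomycin library. Itga3 rose from 74.8 ± 10.1 to 158 ± 12.2 CPM (SD, n = 4 and 5), a log2 fold change of 1.08 (SE 0.12, 2.11-fold, edgeR adjusted p = 6.86e-06).

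Itga6 encodes the alpha chain that pairs with either Itgb1 or Itgb4 (chromosome 2, 71745616 to 71858416, plus strand; ENSMUSG00000027111). Itga6 stood at 38.9, 43.6, 50.1 and 63.2 CPM in naive 1 to 4 and at 204, 138, 145, 154 and 127 CPM in bleomycin 1 to 5. Bleomycin 1 was the highest library, and the groups did not overlap. The mean rose from 49.0 ± 10.5 to 154 ± 30.1 CPM, a log2 fold change of 1.65 (SE 0.16, 3.13-fold, edgeR adjusted p = 1.61e-06).

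Itga7 encodes a laminin receptor chain best known from skeletal muscle (chromosome 10, 128933818 to 128958282, plus strand; ENSMUSG00000025348). It stood at 51.0, 44.9, 54.0 and 54.2 CPM in naive 1 to 4 and at 151, 145, 155, 147 and 129.7 CPM in bleomycin 1 to 5. Both groups were narrow and far apart. Itga7 rose from 51.0 ± 4.37 to 146 ± 9.56 CPM, a log2 fold change of 1.51 (SE 0.12, 2.86-fold, edgeR adjusted p = 1.44e-07), the lowest adjusted p of the 8 subunits tested. Only 9 exon bases of Itga7 lie opposite another gene model.

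Itgb1, the beta chain of all 3 (chromosome 8, 128685654 to 128733200, plus strand; ENSMUSG00000025809), stood at 397, 392, 411 and 397 CPM in naive 1 to 4 and at 415, 402, 472, 318 and 432 CPM in bleomycin 1 to 5. The naive libraries fell inside the wider range of the bleomycin libraries, of which bleomycin 4 was lowest. The log2 fold change of Itgb1 was 0.03 (SE 0.12, edgeR adjusted p = 0.877), and its 95% interval of -0.22 to 0.28 leaves out a change of the size measured for Itga3, Itga6 or Itga7. Per kilobase of exon, the summed level of the 3 laminin-binding alpha chains came to 21.9% to 28.9% of the Itgb1 level in naive libraries and 51.8% to 79.7% after bleomycin, again a share computed after the values were seen and not tested.

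Itgb4, the hemidesmosomal beta chain (chromosome 11, 115974709 to 116008412, plus strand; ENSMUSG00000020758), was low and variable. It stood at 2.35, 2.99, 4.50 and 0.596 CPM in naive 1 to 4 and at 18.5, 27.4, 7.12, 4.02 and 6.18 CPM in bleomycin 1 to 5. Bleomycin 1 and bleomycin 2 were far above the rest, and naive 3 was above bleomycin 4. Itgb4 was called higher, from 2.61 ± 1.62 to 12.7 ± 9.997 CPM, with a log2 fold change of 2.27 (SE 0.56, 4.83-fold, edgeR adjusted p = 0.00796). The call was lost with limma-voom (adjusted p = 0.0914) and without bleomycin 1 and bleomycin 2, where the log2 fold change was 1.16 (edgeR adjusted p = 0.109). Another 537 exon bases lie opposite the non-coding model B230344G16Rik.

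The collagen-receptor chain Itga2 (chromosome 13, 114833081 to 114932100, minus strand; ENSMUSG00000015533) had 0 counts in each of the 4 naive libraries. Itga2 had 7, 15, 6, 0 and 2 counts in bleomycin 1 to 5. The bleomycin libraries with most counts were again bleomycin 1 and bleomycin 2. The 30 counts of all 5 bleomycin libraries together came to 1.18 CPM. That was 5.66-fold a floor of 3 counts over the naive group (0.209 CPM), and 3.63-fold without bleomycin 2. The floor allows for counting error in the naive group only. Counting error in the bleomycin libraries and the spread between libraries are not covered, so neither fold is a lower bound.

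**Figure D2:**
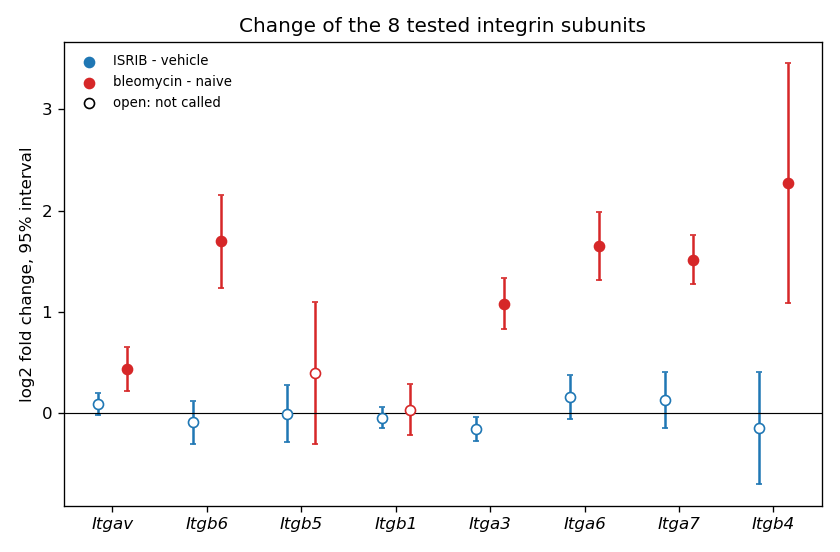
The log2 fold change of the 8 tested subunits is plotted with its 95% interval, for ISRIB minus vehicle in blue and bleomycin minus naive in red; filled points were called and open points were not. Filled red points run from 0.43 for Itgav to 2.27 for Itgb4, and every blue point is open.

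Since a long transcript collects more reads, levels of different subunits were compared as CPM per kilobase of merged exons. Merged exons join all annotated transcripts of a gene, and the transcripts present in these cells may be shorter. The order of the subunits, and the shares per kilobase given above, depend on these lengths. Itgb1 was the highest in naive cells at 97.8 ± 2.03 CPM per kilobase, followed by Itga3 at 13.1 ± 1.77 and Itgav at 9.30 ± 0.439. Itga7 (6.31 ± 0.540) and Itga6 (5.42 ± 1.17) came next with overlapping ranges, then Itgb6 (2.33 ± 0.199), Itgb5 (1.73 ± 0.271) and Itgb4 (0.372 ± 0.231). The laminin-binding alpha chains of Itga3, Itga6 and Itga7 thus sat far below their shared beta chain Itgb1, while Itgav sat above its partners Itgb6 and Itgb5.

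After bleomycin the order changed around Itgav. Itgb1 stayed highest at 99.9 ± 13.9 CPM per kilobase and Itga3 next at 27.7 ± 2.13, while Itga7 (18.0 ± 1.18) and Itga6 (17.0 ± 3.33), whose ranges overlapped, both lay above Itgav (12.5 ± 0.631) without overlap. Itgb6 followed at 7.57 ± 2.47, and Itgb5 (2.29 ± 0.775) and Itgb4 (1.80 ± 1.43) overlapped. The poly(A) vehicle libraries gave Itgb1 at 154 ± 5.19 CPM per kilobase, Itga3 at 27.6 ± 1.39, and Itga7 (11.7 ± 1.80) and Itgav (10.8 ± 0.231) with overlapping ranges. Below these came Itga6 at 7.24 ± 0.571, Itgb6 at 3.13 ± 0.389 and Itgb5 at 2.98 ± 0.561, the last pair overlapping, and Itgb4 at 0.373 ± 0.0921. Levels in the 2 kits are listed side by side and were not compared.

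**Figure D3:**
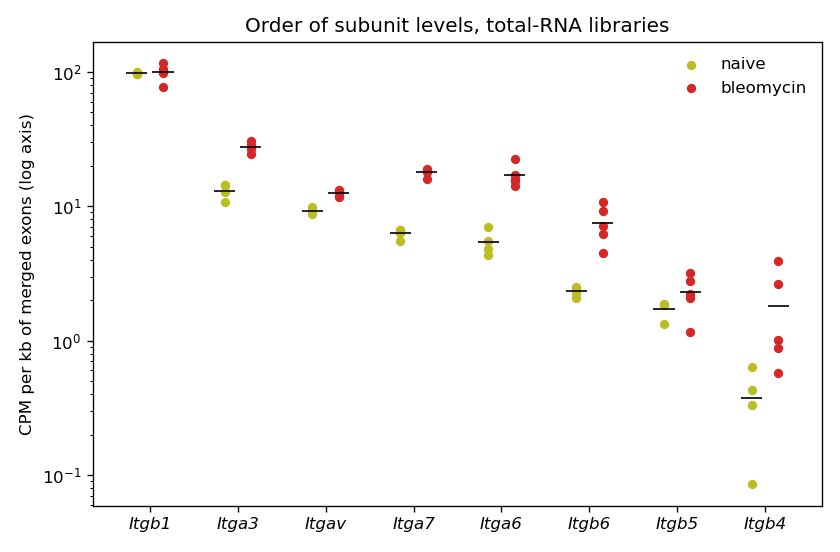
CPM per kilobase of merged exons is shown on a log axis for the 8 subunits with a naive mean above 0.1, 1 point per total-RNA library and a line at each group mean. Itgb1 lies highest in both groups, and the red bleomycin points of Itga6 and Itga7 move above those of Itgav.

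How the laminin receptors shifted against each other was tested on log2 ratios of counts within each library, with 0.5 added to every count and a two-sided exact permutation test (smallest possible p = 0.00794 for 4 against 5 libraries), adjusted over 4 ratios. The Itga3 to Itga6 ratio was 0.65, 0.75, 0.72 and 0.38 in naive 1 to 4 and -0.33, 0.33, 0.14, -0.01 and 0.15 in bleomycin 1 to 5. Reads of Itga3 thus outnumbered those of Itga6 in each naive library, and the 2 groups did not overlap. The mean fell by 0.57 on the log2 scale, from 0.62 ± 0.17 to 0.06 ± 0.25 (exact permutation p = 0.0159, adjusted p = 0.0212).

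The Itga7 to Itga3 ratio was -0.26, -0.71, -0.61 and -0.60 in naive 1 to 4 and -0.11, -0.26, -0.04, -0.05 and -0.12 in bleomycin 1 to 5. The groups overlapped narrowly, with bleomycin 2 just below naive 1. The mean rose by 0.43 on the log2 scale (exact permutation p = 0.0159, adjusted p = 0.0212). Both calls were lost when bleomycin 1, 3, 4 or 5 was left out, with adjusted p = 0.0571 for Itga3 to Itga6 and adjusted p = 0.0762 for Itga7 to Itga3 by the exact permutation test.

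The Itgb4 to Itga6 ratio ran from -6.41 to -3.43 in naive and from -5.21 to -2.33 in bleomycin libraries, a difference of 0.47 on the log2 scale (exact permutation p = 0.587). The Itgb6 to Itgb8 ratio differed by 2.65 (exact permutation p = 0.00794, adjusted p = 0.0212), a call lost without bleomycin 1, 3, 4 or 5 (adjusted p = 0.0571 by the exact permutation test). With 0 or 1 count of Itgb8 in each library its size is set by the 0.5 added, and it says nothing about the subunits.

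**Figure D4:**
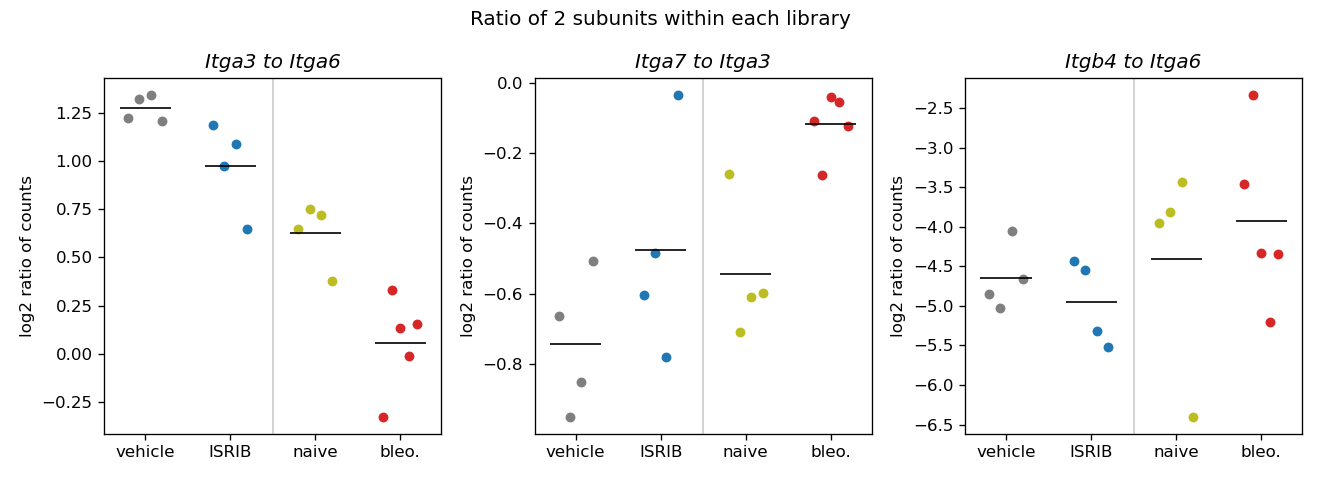
The log2 ratio of counts of Itga3 to Itga6, Itga7 to Itga3 and Itgb4 to Itga6 is plotted for every library, with a line at each group mean. The bleomycin points of Itga3 to Itga6 lie lower than all naive points, and those of Itga7 to Itga3 lie higher apart from bleomycin 2, which meets naive 1.

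The other integrin subunits did not follow 1 direction after bleomycin. Of 17 listed, 5 were tested, with 1 called higher and 2 lower and a median log2 fold change of 0.53. Itgb3, the beta chain that makes the vitronectin receptor with Itgav, rose from 3.73 to 13.1 CPM (log2 fold change 1.84, SE 0.36, edgeR adjusted p = 0.00123). Its naive libraries ran from 1.28 to 5.66 CPM and its bleomycin libraries from 10.3 to 17.9 CPM. Not every naive library reached the filter cutoff of 2.57 CPM, so Itgb3 passed with the help of the bleomycin libraries. Itga9, a chain that binds tenascin-C and pairs with Itgb1, fell from 586 to 406 CPM (log2 fold change -0.53, edgeR adjusted p = 0.00502). Itga1, a collagen-receptor chain, fell from 15.8 to 8.71 CPM (log2 fold change -0.84, edgeR adjusted p = 0.0435), a call lost without any 1 of naive 1 to 4, bleomycin 3, bleomycin 4 or bleomycin 5 (adjusted p up to 0.130). The leukocyte subunits Itgal, Itgam, Itgax and Itgb2 had a mean under 1 CPM in both groups.

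Of the 24 matrix ligands listed, 17 were tested and 12 were called higher and 0 lower, with a median log2 fold change of 1.04, beside 11.2% of all tested genes called higher and 9.31% called lower. The same shares stand beside the counts of the other lists after bleomycin. Npnt, whose product nephronectin is a ligand of the pair of Itga8 and Itgb1, rose from 119 to 290 CPM (log2 fold change 1.28, edgeR adjusted p = 3.82e-06), while Itga8 itself was under 1 CPM in both groups. Fn1, encoding fibronectin and named here after its values were seen, stood between 1.28 and 3.30 CPM in naive and between 17.9 and 171 CPM in bleomycin libraries. Fn1, Tnc, Col1a1, Col1a2 and Lamb1 were low in naive cells and passed the filter mainly through the bleomycin libraries, so the count and median of this list describe it and support no direction.

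Among the 25 adaptors that link integrins to actin, 20 were tested, 8 were called higher and 0 lower, and the median log2 fold change was 0.30. Flna, encoding the actin crosslinker filamin A, rose from 257 to 418 CPM (log2 fold change 0.70, edgeR adjusted p = 0.000399), and Actn4, encoding an alpha-actinin, rose from 317 to 481 CPM (0.60, edgeR adjusted p = 0.000547). Without naive 1, or without naive 3, 5 adaptors were called in place of 8, and without bleomycin 1 and bleomycin 2, 6 were called higher and 1 lower.

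Of the 8 hemidesmosome and tetraspanin partners, 7 were tested, 3 were called higher and 1 lower (median log2 fold change 0.49). Plec, encoding the linker plectin, rose from 565 to 799 CPM (log2 fold change 0.50, edgeR adjusted p = 0.00329), and the tetraspanin gene Cd81 rose from 91.4 to 128 CPM (0.49, edgeR adjusted p = 0.0108). Dst, encoding the linker dystonin, fell from 59.4 to 25.9 CPM (log2 fold change -1.20, SE 0.15, edgeR adjusted p = 2.08e-05). Col17a1, encoding the hemidesmosomal collagen, had 6 counts in each group and was not tested.

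Latent TGF-beta and response genes moved in both directions: of 21 listed, 17 were tested, 6 were called higher and 1 lower, with a median log2 fold change of 0.20. Thbs1, whose product thrombospondin 1 can also activate latent TGF-beta, rose from 96.6 to 292 CPM (log2 fold change 1.60, SE 0.15, edgeR adjusted p = 1.26e-06). The ligand gene Tgfb3 rose from 30.4 to 58.2 CPM (0.94, edgeR adjusted p = 8.29e-05), and Tgfb2, named after its values were seen, stood between 0 and 1.07 CPM in naive and between 3.48 and 21.2 CPM in bleomycin libraries. No naive library of Tgfb2 reached the filter cutoff of 2.57 CPM, so Tgfb2 was tested only through the bleomycin libraries. The count and median of this list therefore describe it and support no direction. Tgfb1, the ligand most often linked to lung fibrosis and also named after its values were seen, stood at 12.7 ± 4.87 and 14.6 ± 4.36 CPM (log2 fold change 0.20, edgeR adjusted p = 0.659). Tgfbi, a secreted matrix protein gene commonly induced by TGF-beta, fell from 40.2 to 19.7 CPM (log2 fold change -1.01, edgeR adjusted p = 0.00355). It was the 1 gene of the list called lower. Ccn2, Tgfbr2 and Ltbp2, named after their values were seen, were called higher.

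**Figure D5:**
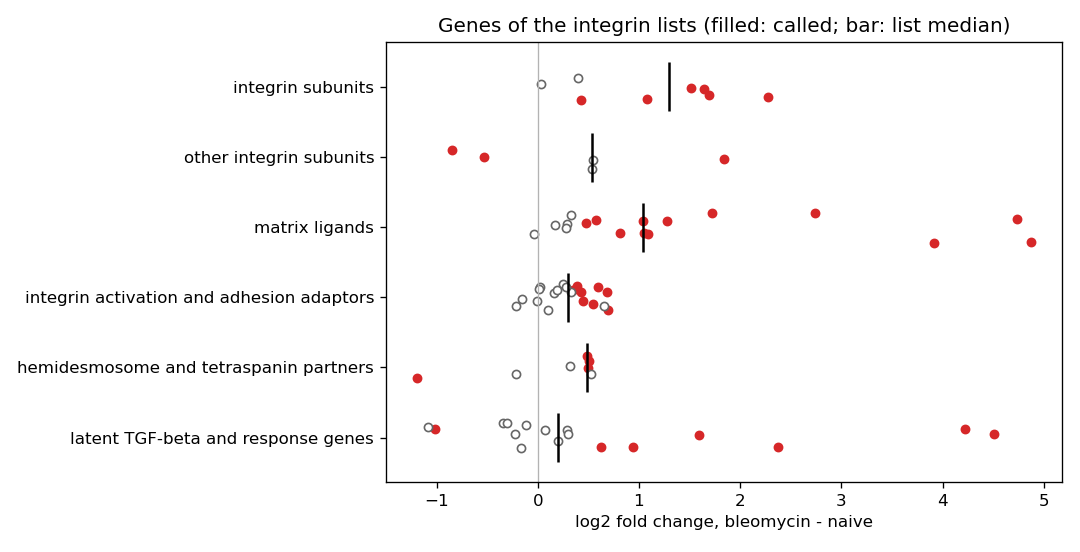
The log2 fold change of bleomycin minus naive is plotted for every tested gene of the 10 integrin subunits and of 5 related lists; filled red points were called, open points were not, and the black bar is the list median. Medians run from 0.20 for latent TGF-beta and response genes to 1.30 for the integrin subunits, whose members were not chosen independently of these data.

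Some markers of other cells and cell states also differed after bleomycin, while others overlapped between the groups. Of 10 markers of alveolar type 1 cells, 9 were tested and 6 were called higher, their summed level going from 1635 to 1793 CPM in naive to 2372 to 2777 CPM in bleomycin libraries. Of 10 markers of the transitional epithelial state, 9 were called higher, Krt19 and Hbegf among them, and Nupr1 lower, with sums of 599 to 645 and 933 to 1178 CPM. Their part in the integrin results was not tested. Airway and basal markers summed to 373 to 803 CPM in naive and 408 to 776 CPM after bleomycin, with 2 of 4 tested genes called higher, the ciliated-cell genes Foxj1 and Ccdc153, and with Krt5, Krt14 and Trp63 under 1 CPM in both groups.

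Fibroblast markers summed to 3.87 to 10.1 CPM in naive and 17.5 to 115 CPM in bleomycin libraries, and the 3 of 8 that were tested (Col1a1, Col3a1 and Col1a2) were called higher. Col1a1 and Col1a2, which also stand among the matrix ligands, passed the filter mainly through the bleomycin libraries, so this count supports no direction. The highest sums were 115 CPM in bleomycin 2 and 54.5 CPM in bleomycin 1, the libraries that were also highest in Itgb6, Itgb4 and Itga2. They were the lowest in summed AT2 markers as well, at 51940 CPM in bleomycin 1 and 62239 CPM in bleomycin 2, against 76132 to 91718 CPM in bleomycin 3 to 5. The part of either in the integrin results was not tested, beyond the values without both libraries. Of the 10 AT2 markers, Sftpd and Napsa were called higher and Etv5 lower, and with 1 library left out, or by the other tools, the number called ran from 0 to 5. Lum was at 0 in every library and Tcf21 under 1 CPM in both groups. Without bleomycin 1 and bleomycin 2, 5 of the 8 subunits were still called higher, all but Itgb4 of the 6. Endothelial markers summed to 19.4 to 27.3 and 20.4 to 75.1 CPM, with Cdh5 and Vwf called higher. By limma-voom 1 of the fibroblast markers and 0 of the endothelial and airway markers were called. Macrophage markers summed to 5.98 to 9.39 and 4.59 to 10.1 CPM, and neutrophil and lymphocyte markers stayed under 2 CPM in sum in every library.

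After ISRIB, 0 of the 8 integrin subunits tested were called by edgeR, against 2.2% of all genes tested (1.1% higher and 1.1% lower). DESeq2 and limma-voom called 0 as well, though DESeq2 gave no adjusted p for Itgb4. In edgeR 1 of the 8, Itga3, had an unadjusted p under 0.05. Itga3 stood at 156, 166, 147 and 162 CPM in vehicle 1 to 4 and at 133, 149, 141 and 142 CPM in ISRIB 1 to 4. The groups met, with ISRIB 2 just above vehicle 3. The log2 fold change of Itga3 was -0.16 (SE 0.05, 95% interval -0.27 to -0.04, edgeR adjusted p = 0.148).

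Itgav stood at 113, 117, 117 and 119 CPM in vehicle 1 to 4 and at 119, 122, 121 and 132 CPM in ISRIB 1 to 4. It was the 1 subunit of 8 whose groups did not overlap, by the narrow gap between vehicle 4 and ISRIB 1, against 4.26% of all genes tested that were apart upward and 4.39% downward (8.65% in all). Its log2 fold change was 0.09 (SE 0.05, 95% interval -0.02 to 0.20, edgeR adjusted p = 0.437). Itgb6 stood at 22.5, 19.99, 20.5 and 26.1 CPM after vehicle and at 19.1, 24.0, 20.2 and 20.0 CPM after ISRIB, with a 95% interval of -0.31 to 0.12 for its log2 fold change (edgeR adjusted p = 0.719). The interval leaves out a rise of the size measured for Itgb6 after bleomycin, a comparison made in other libraries and with another kit.

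Itgb1 stood between 607 and 655 CPM after vehicle and between 581 and 623 CPM after ISRIB (log2 fold change -0.05, 95% interval -0.15 to 0.06, edgeR adjusted p = 0.70). Itga6 stood between 58.0 and 70.1 CPM and between 58.6 and 90.7 CPM (0.15, 95% interval -0.06 to 0.37, edgeR adjusted p = 0.50). Itga7 stood between 81.6 and 114 CPM and between 81.9 and 139 CPM (0.13, 95% interval -0.15 to 0.41, edgeR adjusted p = 0.702). In both alpha chains the widest value was that of ISRIB 4, and the groups overlapped. Itgb5 stood between 8.46 and 13.2 CPM and between 9.66 and 11.4 CPM (-0.01, 95% interval -0.29 to 0.27), and Itgb4 between 1.99 and 3.47 CPM and between 1.61 and 3.20 CPM (-0.15, 95% interval -0.71 to 0.40). The interval of Itgb4 is the widest of the 8, at the lowest level. Itgb8 had 8 counts over the vehicle libraries and 6 over the ISRIB libraries, and Itga2 had 4 and 12, too few to be tested.

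The Itga3 to Itga6 log2 ratio was 1.22, 1.32, 1.34 and 1.21 in vehicle 1 to 4 and 1.18, 0.97, 1.09 and 0.65 in ISRIB 1 to 4. Every ISRIB library lay below every vehicle library, ISRIB 4 by the most. The difference of -0.30 had the smallest p that 4 against 4 libraries allow (exact permutation p = 0.0286), and it did not pass adjustment over the 4 ratios (adjusted p = 0.114). The other 3 ratios had exact permutation p-values from 0.2 to 0.714.

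In the 5 related lists, 3 of 70 genes tested were called after ISRIB, 2 higher and 1 lower, beside 2.2% of all genes tested (1.1% in each direction). Flna fell from 342 to 254 CPM (log2 fold change -0.43, edgeR adjusted p = 0.0129), with all 4 ISRIB libraries below all vehicle libraries. Tns3, encoding the adaptor tensin 3, rose from 90.4 to 114 CPM (0.33, edgeR adjusted p = 0.00664), and Col4a5, a basement membrane collagen chain, rose from 31.2 to 39.5 CPM (0.34, edgeR adjusted p = 0.0208), a call lost without vehicle 1, vehicle 2 or ISRIB 2 (edgeR adjusted p up to 0.0770). Median log2 fold changes of the 5 lists lay between -0.06 and 0.09. Of the marker lists, the AT2 gene Etv5 and the transitional genes Hbegf, Krt19 and Sprr1a were called lower, the call of Krt19 being lost without vehicle 1 or ISRIB 3 (edgeR adjusted p = 0.0607 and 0.0519).

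For each called subunit, the genes with the most similar pattern over all 17 libraries were those with the smallest root-mean-square difference in log2 CPM, each kit centred on its control mean, among 8992 candidates. Itgav was nearest to Igf2r (0.07) and Hipk3 (0.08), against a median distance of 0.35 to all candidates. Itgb6 was nearest to Col6a2 (0.17) and Scnn1g, an epithelial sodium channel subunit gene (0.22), against a median of 0.94. Itga3 was nearest to Sorcs2 (0.13) and Icam1 (0.13), against a median of 0.64. Itga6 and Itga7 shared Inhbb as nearest gene (0.17 for each), with Itga7 the second nearest to Itga6 (0.19) and Ctps the second nearest to Itga7 (0.19), against medians of 0.95 and 0.87. A mean of at least 5 CPM was required in each kit. Itgb4 was under it in the poly(A) libraries (2.62 CPM after vehicle and 2.36 CPM after ISRIB) and was not ranked. These distances are descriptions, and libraries of 1 kit share its control mean.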

How the data were processed

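RNA was measured in 17 libraries. PicoPure RNA was used per the labels' protocols, and libraries were made from 3 ng (poly(A), NEBNext Ultra) or 0.35 ng (SMARTer Stranded Total RNA Pico v2). Values deposited by the authors are raw read counts per gene, in 1 table per kit. The submitters' processing notes name bcl2fastq 2.19.1, FastQC, Trimmomatic 0.36, STAR 2.6.0, HTSeq 0.11.2 and mm10. Neither annotation nor strand setting is given in the sources used here.

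Symbols, positions and exon lengths came from GENCODE M21 (GRCm38), with 42462 of 43430 IDs named. Counts were filtered (filterByExpr, minimum count 10, minimum total 15), scaled by TMM and tested two-sided between groups, with no covariate, by the quasi-likelihood method of edgeR 4.0.16 (R 4.3.3). Adjustment was by Benjamini-Hochberg over every gene tested. SE is the log2 fold change divided by the root of F. CPM use effective library sizes. Ratios were tested with scipy 1.17.1. Alternatives were median-of-ratios scaling, no filter, DESeq2 1.42.0, limma-voom 3.58.1, a replicate block, leaving out each library, and, chosen after the values were seen, leaving out bleomycin 1 and bleomycin 2 together. The fits were checked on simulated data.

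The members and lists were chosen with earlier results of these data known. All 10 members are named. From each related list at most 4 genes are named, the 2 with the lowest p called in each direction. Fn1, Tnc, Col1a1, Col1a2, Lamb1, Tgfb1, Tgfb2, Ccn2, Tgfbr2, Ltbp2, Itga8, Col17a1 and the leukocyte subunits are named outside this rule, after their values were seen. A gene that this rule names is not reported here.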

Additional observations from a re-analysis of the deposited data

Results flagged for a closer look

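Itgb5 in naive 2 stood at 4.70 CPM, apart from the other 3 naive libraries at 6.56 to 6.71 CPM, a gap of 0.925 of the group's whole range. This CPM value was the 1 set apart in this way among 32 groups of libraries checked, and chance alone sets apart about 1 group in 20. It rests on few reads, as the raw counts of Itgb5 in naive 1 to 4 were 20, 22, 22 and 22.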

How the results depend on the processing

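For the 8 integrin subunits tested in the main fits, the count called after bleomycin stayed at 5 or 6 and the count after ISRIB at 0 under every alternative run. Without the filter Itgb8 and Itga2 were fitted too, and they are not part of these counts. The call of Itgb4 after bleomycin was lost with limma-voom and without bleomycin 1 and bleomycin 2. The number of all genes called after ISRIB was 648 without the filter, 408 with DESeq2 and 86 to 269 with 1 library left out, lowest without vehicle 1 (86), vehicle 2 (102) and ISRIB 4 (159). The number after bleomycin was 1554 to 2584 with 1 library left out.

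Directions that turned belonged to genes that were not called. Itgb5 after ISRIB was 0.027 with limma-voom and -0.11 to 0.11 with 1 library left out. In the same way Itgb4 after ISRIB ran from -0.33 to 0.036, Itga7 after ISRIB from -0.039 to 0.23, Itgb1 after bleomycin from -0.018 to 0.11 and Tgfb2 after ISRIB from -0.12 to 0.22. With 1 library left out, the ratios after bleomycin ran from 2.35 to 3.06 (Itgb6 to Itgb8), -0.65 to -0.47 (Itga3 to Itga6), 0.37 to 0.52 (Itga7 to Itga3) and -0.20 to 0.80 (Itgb4 to Itga6, turned without naive 4), and the Itgb6 to Itgb8 ratio after ISRIB from -0.17 to 1.08. The cause was not tested, beyond the smaller number of splits that fewer libraries allow. Libraries that share a replicate number did not deviate together (correlations -0.107 to 0.0883 and -0.0335 to 0.0393), and the replicate block gave 277 and 2099 genes called and changed no call of an integrin subunit.

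Depth limits Itgb8 and Itga2 in both kits, and Itgb4 and Itgb5 in the total-RNA libraries.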
